A study of Mus musculus with 6 samples.

Results

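The clustered Zfp genes are 192 mouse zinc finger genes that lie close to one another. They were chosen by name and position, not by any contact value: a member is a protein-coding autosomal gene whose symbol begins with Zfp and which has at least 2 other Zfp gene starts within 250 kb of its own. Of 391 autosomal protein-coding Zfp genes in the RefSeq table for the mm10 build, 192 met the rule, out of 20661 autosomal protein-coding genes in all. They form 30 clusters on 14 chromosomes, each a chain of members no more than 250 kb apart and called here by its first and last member. Chromosome 7 alone holds 70 members in 10 clusters. The clusters span 100 to 1100 kb and have a median of 5 members. The table gives no strand, so a start is the lower coordinate of the gene, and each gene was read in the 50 kb bin of its start. The 192 starts fall in 145 bins, with up to 4 members in a bin, and the results are given per bin because genes in 1 bin cannot be separated.

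Zfp genes code for proteins with tandem zinc fingers, each finger reading a few bases of DNA. Many of them also carry a KRAB domain, which recruits the co-repressor TRIM28 and through it the histone methyltransferase SETDB1 and DNA methylation, and in embryonic stem cells this machinery silences transposable elements. The genes multiplied by tandem duplication, so neighbours in a cluster are often close relatives in sequence.

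The contact maps came from mouse embryonic stem (ES) cells of strain 129 by in-situ Hi-C, in which crosslinked chromatin is cut with MboI and ligated in the nucleus so that DNA segments in contact are joined and counted. There were 3 libraries of GFP-CTCF-Del8 cells, whose CTCF lacks zinc finger 8 and carries a GFP tag, and 3 libraries labelled wild type (WT). The series' design text describes the comparison cells as expressing GFP-CTCF, and the labels leave unsaid if the WT libraries have the tag. CTCF binds DNA through its own zinc fingers and, with cohesin, marks borders of chromatin domains, and the comparison asks how the maps differ when zinc finger 8 is missing. The labels and the design text speak of 3 biological replicates and do not say how many clones they came from.

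The Del8 libraries held 66266759, 46925260 and 38088173 contacts within chromosomes, and the WT libraries 24038030, 24512722 and 36233407. The share of autosomal bins short of contacts was 0.0355%, 0.0648% and 9.31% in the Del8 libraries, and 37.661%, 37.999% and 0.0752% in the WT libraries. WT replicates 1 and 2 thus stood apart from the other libraries. Bins were therefore used only where all 6 libraries had coverage, which left 27836 of 47875 bins (58.1%). In a map of a cell population, contact in fewer cells and rarer contact in each cell cannot be told apart.

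The clusters kept most of their members through that screen. Of the 192 members, 162 (84.4%) lay in usable bins, against 81.3% of all genes, 80.4% of the Zfp genes outside the clusters and 30.9% of olfactory receptor genes, the other large clustered family. Members in short bins numbered 0, 0 and 2 in the Del8 libraries, and 18, 23 and 0 in the WT libraries. The median coverage of member starts, relative to well-covered bins, was 0.844, 0.819 and 0.845 in Del8, and 0.811, 0.809 and 0.809 in WT. All 6 values lay below the medians of all genes, which were 1.05, 1.04 and 1.04 in Del8, and 1.03, 1.05 and 1.03 in WT. The labels do not say how reads that match several relatives equally well were counted, and the part of such reads in the lower coverage was not tested. The 30 members outside usable bins came from 10 clusters, among them 9 of the 18 members of Zfp677-Zfp946 on chromosome 17 and 5 of the 23 members of Zfp712-Zfp273 on chromosome 13. All members of Zfp937-Zfp442 and Zfp972-Zfp931 on chromosome 2 and of Zfp781-Zfp873 on chromosome 10 were lost, and these 3 clusters have no insulation score below.

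Contact across the member bins moved in both directions in Del8 cells, with no common direction. The measure is the insulation score, which compares, on a log2 scale, the balanced contact in a square of 500 kb spanning the bin with that of its whole chromosome. The higher the score, the more contact there is over the bin. A score could be given to 74 member bins, which hold 103 members of 21 clusters. Of the 74, 18 (24.3%) were higher and 17 (22.97%) were lower in Del8 and 39 were not past the threshold (limma across all scored bins, adjusted p under 0.05). Over all 22056 scored bins, 32.3% were higher and 30.5% lower, and 62.8% were called in either direction, against 47.3% of the members. The median difference was 0.0024 at member bins and 0.0014 at all bins. Libraries did not overlap at 34 member bins: the Del8 libraries all lay above the WT libraries at 19 and below at 15, where 34.3% and 32.7% of all scored bins do the same. Of the 35 called bins, 34 had the same sign when WT replicates 1 and 2 were left out. At 32 of the 35, WT replicate 3 on its own lay outside the range of the Del8 libraries on that side. The calls were made with these same libraries, so both counts are high in part by selection and are no separate support. A looser screen keeps bins that WT replicates 1 and 2 lack contacts in. Under it no member bin passed, nor did any of all 36012 bins scored there. Of 137 member bins, 24 had an unadjusted p under 0.05 (limma).

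Set beside other genes, as a description, members were called higher less often than gene-start bins in general. Of 9298 such bins, 42.8% were higher and 20.04% lower, with a median difference of 0.05. The 130 scored bins of Zfp genes outside the clusters held 60 higher and 22 lower, with a median of 0.06. The 92 scored olfactory receptor bins held 23 higher and 26 lower, with a median of -0.01. At the edge of the rule, the 33 members with exactly 2 neighbours had 12 scored bins, 5 of them higher and 2 lower, with a median difference of 0.07. The 54 Zfp genes with 1 neighbour, just outside the rule, had 23 scored bins, 6 higher and 6 lower, with a median of -0.01. Neighbouring bins share much of their squares, so bins of 1 cluster are not independent and no test was made over the members as a group.

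**Figure D1:**
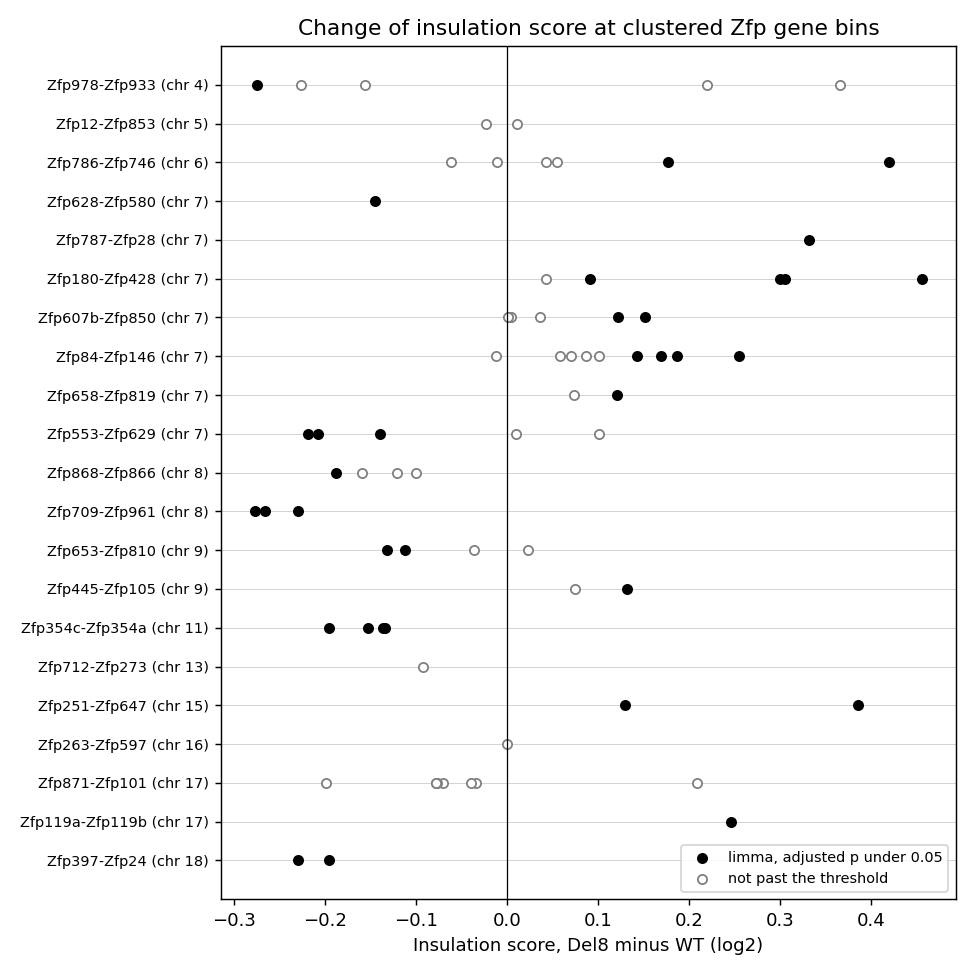
Difference of insulation score, Del8 minus WT on the log2 scale (x axis), at the 74 scored member bins, 1 point per bin, in rows by cluster and chromosome. Filled points passed the threshold (limma, adjusted p under 0.05) and open points did not; in some clusters the bins lie on 1 side of 0, to the right in Zfp180-Zfp428 and to the left in Zfp709-Zfp961 and Zfp354c-Zfp354a.

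The largest rise among the members was at Zfp94, in the cluster Zfp180-Zfp428 on chromosome 7 (bin 24300001 to 24350000). Its score was 0.01, 0.04 and 0.08 in the Del8 libraries, and -0.42, -0.51 and -0.32 in the WT libraries. The Del8 libraries were all above the WT libraries, and the difference was 0.46 (limma, SE 0.04, adjusted p = 4.61e-06), a 1.37-fold contact across the bin relative to the chromosome's mean. The neighbouring bin, which holds the starts of Zfp108, Zfp93 and Zfp61, had scores of 0.23, 0.24 and 0.28 in Del8, and -0.04, -0.11 and -0.02 in WT. The groups were again apart, with a difference of 0.31 (limma, SE 0.03, adjusted p = 7.64e-06). Zfp428, the last member of the cluster, was at -0.20, -0.12 and -0.15 in Del8, and at -0.45, -0.47 and -0.45 in WT, a difference of 0.30 (limma, SE 0.03, adjusted p = 8.69e-06). Zfp109 rose by 0.09, and the bin of Zfp114 and Zfp111, with a difference of 0.04, was not past the threshold. In all, 4 of the 5 scored bins of the cluster were higher in Del8 and the median difference was 0.30. The cluster's deepest minimum in the summed map lay in a bin with no member start starting at 24400001, picked out after its values were seen. It scored -0.28, -0.22 and -0.26 in Del8, and -0.76, -0.78 and -0.65 in WT.

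The promoter of Zfp94 is shown as that of the member with the largest rise. It runs from 250 bases before to 50 bases after the start of transcription on the minus strand, at chr7:24316617-24316916 (GRCm38.p6, sequence from RefSeq). It was searched on both strands for a coarse core of the sequence that CTCF binds, which reads CC, any 3 bases, AG, any 2 bases and GGC, and held no match. It holds 25 CG dinucleotides.
Zfp94: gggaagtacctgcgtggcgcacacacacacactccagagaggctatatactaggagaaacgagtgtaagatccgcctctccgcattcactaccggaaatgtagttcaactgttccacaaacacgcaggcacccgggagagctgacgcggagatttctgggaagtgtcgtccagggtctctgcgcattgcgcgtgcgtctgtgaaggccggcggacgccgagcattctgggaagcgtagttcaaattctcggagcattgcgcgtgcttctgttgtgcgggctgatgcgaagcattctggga

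Other neighbourhoods outside that cluster also held large rises. At Zfp647 on chromosome 15 (bin 76900001 to 76950000), a domain boundary of the summed map, the score was -0.28, -0.26 and -0.27 in Del8, and -0.72, -0.63 and -0.61 in WT. The dip in the score was shallower in every Del8 library, by 0.39 (limma, SE 0.04, adjusted p = 4.19e-06), and the other bin of the cluster, with Zfp251 and Zfp7, rose by 0.13. At Zfp78 and Zfp28 on chromosome 7 (bin 6350001 to 6400000) the score was 0.74, 0.76 and 0.69 in Del8, and 0.31, 0.35 and 0.53 in WT. The difference was 0.33 (limma, SE 0.05, adjusted p = 0.000105), and WT replicate 3 lay nearest to the Del8 libraries; without WT replicates 1 and 2 the difference was 0.20. At Zfp786 and Zfp398 on chromosome 6 (bin 47800001 to 47850000), the deepest member boundary, the score was -2.28, -2.30 and -2.30 in Del8, and -2.82, -2.80 and -2.52 in WT. The groups did not overlap and the difference was 0.42 (limma, SE 0.14, adjusted p = 0.0221), but the call was lost in 9 of 13 alternatives and the difference was 0.11 when only WT replicate 3 and the Del8 libraries were screened and fitted.

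The promoters of Zfp786 and Zfp398 are shown because they are among the 10 of 185 member promoters with a match to the coarse CTCF core. The Zfp786 promoter lies at chr6:47830456-47830755 on the minus strand and the Zfp398 promoter at chr6:47835411-47835710 on the plus strand (GRCm38.p6, RefSeq), with matches in capitals, 1 in Zfp786 and 2 in Zfp398.
Zfp786: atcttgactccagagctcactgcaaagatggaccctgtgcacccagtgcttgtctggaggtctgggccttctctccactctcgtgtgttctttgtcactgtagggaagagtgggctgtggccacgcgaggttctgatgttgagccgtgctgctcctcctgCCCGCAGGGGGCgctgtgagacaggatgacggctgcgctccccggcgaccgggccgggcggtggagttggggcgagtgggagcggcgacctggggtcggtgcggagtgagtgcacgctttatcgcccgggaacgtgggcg
Zfp398: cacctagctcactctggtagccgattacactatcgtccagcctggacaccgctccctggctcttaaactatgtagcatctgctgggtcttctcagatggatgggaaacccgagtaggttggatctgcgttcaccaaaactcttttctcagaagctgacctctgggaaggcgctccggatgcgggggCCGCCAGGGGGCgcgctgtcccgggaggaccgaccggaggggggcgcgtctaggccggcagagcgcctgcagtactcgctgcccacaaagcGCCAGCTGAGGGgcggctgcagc

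The largest called fall was in Zfp709-Zfp961 on chromosome 8, where all 3 scored bins were lower in Del8. Zfp709 (bin 71850001 to 71900000) had a score of -0.30, -0.30 and -0.28 in Del8, and -0.04, -0.03 and 0.02 in WT. It fell by 0.28 (limma, SE 0.03, adjusted p = 7.80e-06), a contact across the bin of 0.825 times that in WT. The bin of Zfp882 and Zfp617 was at -0.24, -0.24 and -0.23 in Del8, and at -0.01, 0.02 and 0.07 in WT, and fell by 0.27 (limma, SE 0.03, adjusted p = 1.38e-05). Zfp961 was at -0.17, -0.22 and -0.19 in Del8, and at 0.01, 0.02 and 0.08 in WT, and fell by 0.23 (limma, SE 0.03, adjusted p = 4.20e-05). The Del8 and WT libraries did not overlap at any of these 3 bins. In a square of 1 Mb the differences at the 3 bins, in the same order, were -0.15, -0.14 and -0.09, still past the threshold. Farther along the chromosome, outside the cluster, the groups stood the other way and lay wider apart. The bin starting at 72550001, picked out after its values were seen, scored -0.49, -0.48 and -0.53 in Del8, and -1.25, -1.20 and -1.12 in WT.

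Zfp709 is shown as the member with the largest fall, and Zfp961 because its promoter holds 1 match to the CTCF core, in capitals. Both lie on the plus strand, Zfp709 at chr8:71881818-71882117 and Zfp961 at chr8:71950816-71951115 (GRCm38.p6, RefSeq). The Zfp709 promoter held no match and 23 CG dinucleotides.
Zfp709: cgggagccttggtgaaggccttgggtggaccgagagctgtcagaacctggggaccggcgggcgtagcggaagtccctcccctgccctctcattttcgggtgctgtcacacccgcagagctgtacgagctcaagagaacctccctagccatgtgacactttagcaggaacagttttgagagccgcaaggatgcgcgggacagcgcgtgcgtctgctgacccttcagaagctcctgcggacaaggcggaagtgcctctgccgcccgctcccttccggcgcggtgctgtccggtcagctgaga
Zfp961: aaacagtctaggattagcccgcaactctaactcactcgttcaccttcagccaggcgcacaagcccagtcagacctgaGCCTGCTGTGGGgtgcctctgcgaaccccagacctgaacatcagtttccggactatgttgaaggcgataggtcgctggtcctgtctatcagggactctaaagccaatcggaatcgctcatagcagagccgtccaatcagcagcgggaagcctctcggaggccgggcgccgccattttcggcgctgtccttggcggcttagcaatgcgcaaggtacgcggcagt

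Zfp24 on chromosome 18, a gene that mice need for myelination of the central nervous system, also fell. Its score was -0.48, -0.54 and -0.58 in Del8, and -0.30, -0.35 and -0.25 in WT, a difference of -0.23 (limma, SE 0.04, adjusted p = 0.000204). In a square of 250 kb it was -0.13 and the call was lost (limma, adjusted p = 0.0512). The boundary bin of Zfp397 and Zfp35 beside it fell by 0.20 (limma, SE 0.03, adjusted p = 0.000264). Zfp985, in the cluster Zfp978-Zfp933 on chromosome 4, passed the test with a difference of -0.28 (limma, SE 0.09, adjusted p = 0.0189). Its score was 0.05, 0.13 and 0.06 in the Del8 libraries, and 0.46, 0.54 and 0.06 in WT. Only WT replicates 1 and 2 were high, the groups overlapped, and without these replicates the difference was 0.01.

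**Figure D2:**
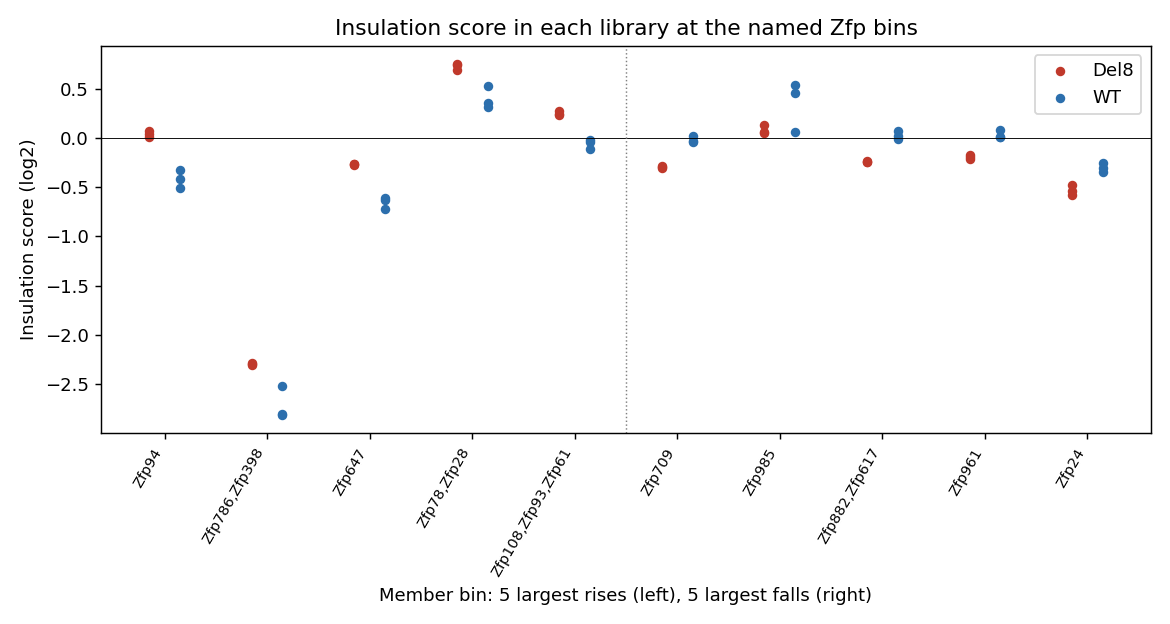
Insulation score on the log2 scale (y axis) in each of the 3 Del8 and 3 WT libraries, 1 point per library, at the 5 member bins with the largest rises and the 5 with the largest falls among those past the threshold. The groups are apart at every bin except Zfp985, where WT replicate 3, at 0.06, lies among the Del8 libraries.

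The remaining clusters included some with changes of like size. On chromosome 7, Zfp84-Zfp146 had 4 of 9 scored bins higher and none lower, with a median difference of 0.10. Its largest rise was at Zfp382, with scores of -0.39, -0.38 and -0.44 in Del8, and -0.71, -0.63 and -0.63 in WT, a difference of 0.26 (limma, SE 0.03, adjusted p = 6.96e-05). Zfp568, a member of the same cluster whose protein represses a placental transcript of Igf2 in mice, had a difference of 0.09 and was not past the threshold. Zfp607b-Zfp850 had 2 of 6 bins higher and a median of 0.02, and Zfp658-Zfp819 had 1 of 2 higher and a median of 0.10. Zfp119b was the only scored bin of its cluster on chromosome 17, with a difference of 0.25 (limma, SE 0.05, adjusted p = 0.00117).

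Zfp553-Zfp629 at the far end of chromosome 7 went down, with 3 of 5 bins lower and a median of -0.14. There the bin of Zfp688 and Zfp689 was at -0.16, -0.17 and -0.20 in Del8, and at 0.05, -0.03 and 0.10 in WT, a difference of -0.22 (limma, SE 0.03, adjusted p = 0.000175). All 4 scored bins of Zfp354c-Zfp354a on chromosome 11 were lower, with a median of -0.14. Its last member Zfp354a, which codes for the kidney repressor Kid-1, fell by 0.20 (limma, SE 0.03, adjusted p = 0.000232). Zfp653-Zfp810 on chromosome 9 had 2 of 4 bins lower and a median of -0.07. The bin of Zfp809, whose protein silences retroviral DNA in mouse ES cells, fell by 0.11 there (limma, SE 0.04, adjusted p = 0.0166). Zfp628, the only scored bin of Zfp628-Zfp580 on chromosome 7, fell by 0.15.

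In several further clusters, some or all of the scored bins were not past the threshold. Zfp868-Zfp866 on chromosome 8 had 1 of 4 bins lower and a median of -0.14, with all 4 differences between -0.19 and -0.10. Zfp445-Zfp105 on chromosome 9 had 1 of 2 higher and a median of 0.10, with differences of 0.08 and 0.13. Zfp445, whose protein helps to keep genomic imprints in mice, had a difference of 0.08 and was not past the threshold. Zfp786-Zfp746 on chromosome 6 had 2 of 6 higher and a median of 0.05, and Zfp978-Zfp933 on chromosome 4 had 1 of 5 lower and a median of -0.16. None of the 8 scored bins of Zfp871-Zfp101 on chromosome 17 passed the threshold (median -0.07), and none of the 2 of Zfp12-Zfp853 on chromosome 5 did (median -0.01). The single scored bins of Zfp712-Zfp273 on chromosome 13 (-0.09) and Zfp263-Zfp597 on chromosome 16 (-0.00063) were not past it.

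**Figure D3:**
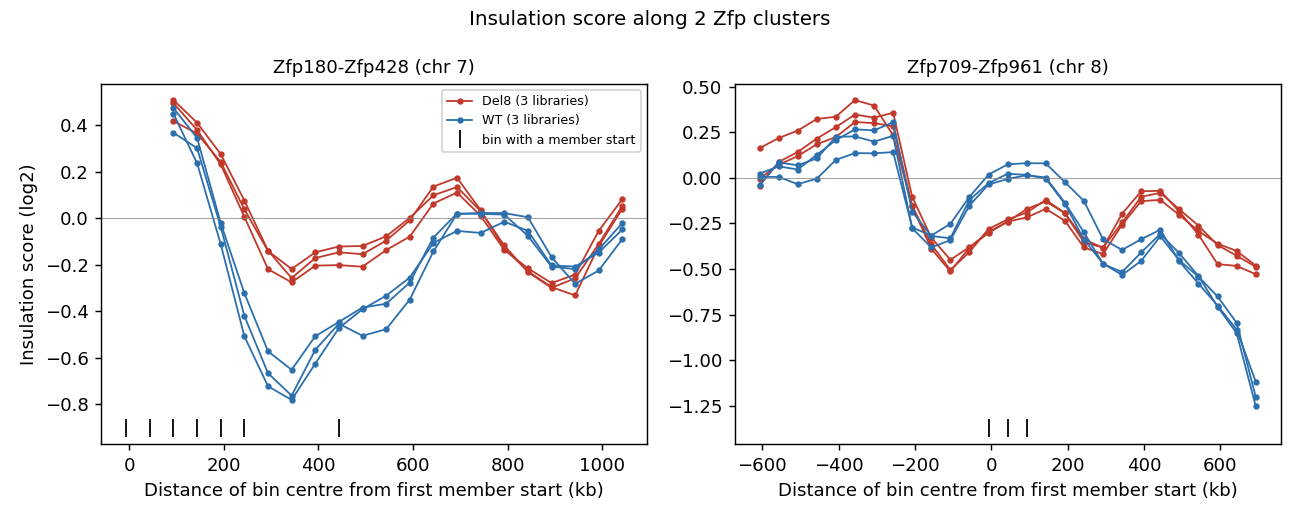
Insulation score on the log2 scale (y axis) by distance of the bin centre from the first member start in kb (x axis) along Zfp180-Zfp428 and Zfp709-Zfp961, 1 line per library, with ticks at bins that hold member starts. In the first cluster the 3 Del8 lines stay at -0.28 or above in the dip where the WT lines reach -0.78; in the second they lie below the WT lines at all 3 member bins.

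Member bins were domain boundaries more often than scored bins in general, as a description. Boundaries were minima of the score on the map summed over the 6 libraries. Of the 74 member bins, 10 (13.5%) were boundaries, against 6.1% of all scored bins. Shares for gene-start bins, for Zfp genes outside the clusters and for olfactory receptor bins were not computed, so this is not called particular to the members. Of these 10, 4 were higher in Del8 (Zfp786 with Zfp398, Zfp607b, Zfp146 and Zfp647), 2 were lower (Zfp628, and Zfp397 with Zfp35) and 4 were not past the threshold. Over all 1345 boundaries, 48.5% were higher and 15.5% lower.

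Within clusters, single pairs of 100 kb bins changed in both directions. Of the 105 pairs with both bins in 1 cluster span that had enough contacts, in 23 clusters, 9 were higher and 7 lower in Del8 (edgeR quasi-likelihood test with offsets per chromosome and distance, adjusted p under 0.05). That is 15.2% of the pairs, against 8.83% of all 152519 pairs, of which 4.7% were higher and 4.13% lower. The sets are not alike in distance, as pairs inside clusters lay 100 to 800 kb apart and all pairs up to 2 Mb. Nearer pairs hold more contacts, which makes a call easier, and shares at matched distance or count were not computed. With TMM factors in place of the distance offsets the split was 5 higher (4.76%) and 16 lower (15.2%), against 4.62% and 5.41% of all pairs, so the balance of directions rests on the scaling. The higher pairs numbered 5 (4.76%) without Del8 replicate 2 and likewise without WT replicate 2, against 3.19% and 3.37% of all pairs. Without WT replicates 1 and 2 the median difference was 0.031 inside clusters and 0.019 over all pairs.

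Of the 9 pairs that rose, 4 lay in the cluster of Zfp94, where 4 of 15 pairs were higher and none lower, and 5 lay in other clusters. The bin of Zfp109, Zfp108, Zfp93 and Zfp61 (24200001 to 24300000) and the bin starting at 24400001, which holds no member start, had 312, 209 and 212 contacts in Del8, and 76, 88 and 116 in WT. Set against the depth of each library and this distance, the pair rose by 0.72 on the log2 scale (edgeR, SE 0.12, adjusted p = 2.03e-06), and it passed in 12 of 13 alternatives. The bins of Zfp94 and Zfp428 had 431, 282 and 258 contacts in Del8, and 139, 121 and 186 in WT, and rose by 0.44 (edgeR, SE 0.10, adjusted p = 0.000705). In Zfp84-Zfp146, the pair of Zfp84 and Zfp30 with Zfp382 and Zfp146 had 122, 110 and 71 contacts in Del8, and 38, 36 and 44 in WT. It rose by 0.59 (edgeR, SE 0.18, adjusted p = 0.0232) but passed in only 7 of 13 alternatives. In Zfp677-Zfp946, the pair of Zfp54, Zfp51 and Zfp53 with Zfp760 and Zfp229 had 75, 62 and 53 contacts in Del8, and 16, 26 and 26 in WT, and rose by 0.74 (edgeR, SE 0.23, adjusted p = 0.023), passing in 6 of 13.

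Both of the largest falls of a called pair lay in Zfp712-Zfp273, the largest cluster, where 3 of 15 pairs were lower and none higher, all 3 with the bin of Zfp273. The bin of Zfp87, Zfp748 and Zfp729b (67500001 to 67600000) and that of Zfp273 (67800001 to 67900000) had 129, 71 and 56 contacts in Del8, and 102, 88 and 111 in WT. With depth and distance accounted for, the pair fell by 0.92 on the log2 scale (edgeR, SE 0.15, adjusted p = 1.29e-06) and passed in 12 of 13 alternatives. The bin of Zfp459, Zfp874a, Zfp874b and Zfp58 with that of Zfp273 had 83, 40 and 39 contacts in Del8, and 59, 53 and 56 in WT, and fell by 0.77 (edgeR, SE 0.19, adjusted p = 0.00324), passing in 11 of 13. In Zfp978-Zfp933 the pair of Zfp982 and Zfp984 had 74, 54 and 48 contacts in Del8, and 46, 51 and 64 in WT. It fell by 0.63 (edgeR, SE 0.19, adjusted p = 0.018), passing in 8 of 13 alternatives. The nearer pair of Zfp988 and Zfp982 in the same cluster rose by 0.50 (edgeR, SE 0.17, adjusted p = 0.0414). Both lower pairs of Zfp553-Zfp629 ran from the bin of Zfp768, Zfp747 and Zfp764, and fell by 0.51 and by 0.39, and the pair of Zfp628 and Zfp579 with the neighbouring bin in Zfp628-Zfp580 fell by 0.26.

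Averaged over whole spans, contact inside the clusters was above expectation in both lines and differed little. The mean of observed contact over that expected for the distance and the chromosome could be given for 21 clusters. It was above 1 in every library for 18 of them, where 33.2% of 300 kb windows tiled over the autosomes were. Zfp937-Zfp442 is 1 of the 18, though all its member bins were lost, so its value comes from bins of the span with no member start. The measured spans, 150 to 1100 kb long with 3 to 78 usable bin pairs, were not matched to the windows in size. It was highest in Zfp677-Zfp946, at 1.82, 1.77 and 1.80 in Del8, and 1.70, 1.79 and 1.92 in WT. It was lowest in Zfp354c-Zfp354a, at 0.862, 0.790 and 0.825 in Del8, and 0.813, 0.759 and 0.800 in WT. The Del8 libraries all lay above the WT libraries in 2 clusters and below in 6, where 18.9% and 18.7% of the tiled windows did so. The 2 were Zfp180-Zfp428, with a mean of 1.13 ± 0.022 in Del8 and 1.03 ± 0.032 in WT, and Zfp787-Zfp28, with 1.38 ± 0.028 in Del8 and 1.30 ± 0.038 in WT (SD, n = 3 each). Among the 6, Zfp628-Zfp580 had a mean of 1.08 ± 0.0074 in Del8 and 1.21 ± 0.022 in WT, and Zfp786-Zfp746 had 1.30 ± 0.0097 in Del8 and 1.40 ± 0.027 in WT (SD, n = 3 each). Without WT replicate 2, the clusters above numbered 4, and the share of tiled windows was not computed there. The other 4 of those below were Zfp607b-Zfp850, Zfp553-Zfp629, Zfp445-Zfp105 and Zfp712-Zfp273. A two-sided exact permutation test cannot give less than p = 0.10 for 3 against 3, and the smallest value adjusted over the 21 clusters was 0.263.

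**Figure D4:**
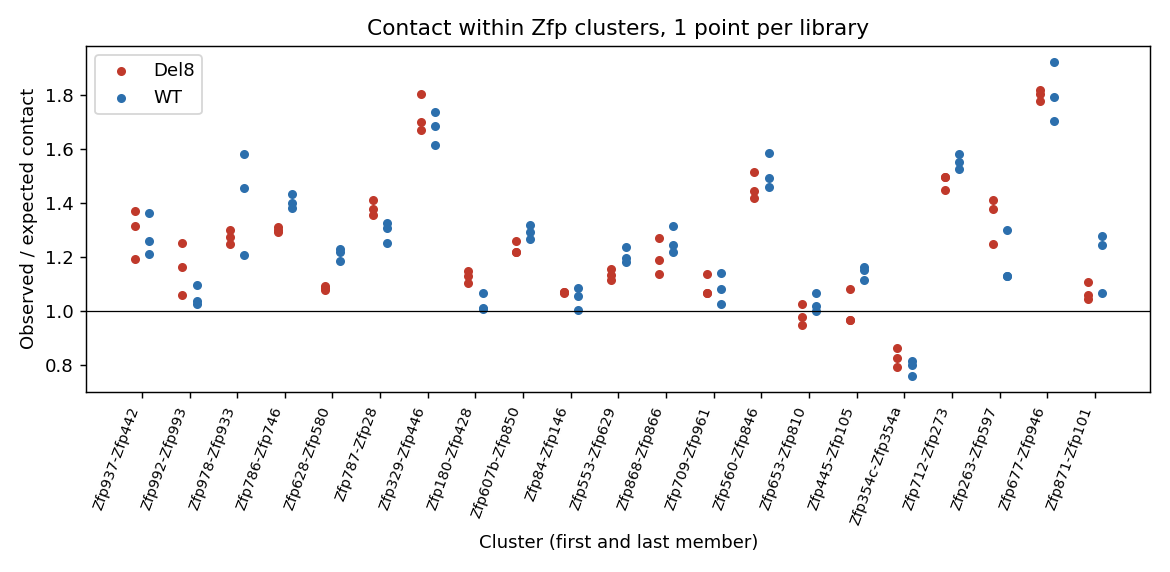
Mean observed over expected contact inside each of 21 Zfp clusters (y axis), 1 point per library, Del8 left of WT for each cluster (x axis, clusters in genome order). The line marks 1; most points lie above it in both groups, and only 2 clusters have all Del8 points above all WT points.

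Clusters at the near end of chromosome 7 were in contact with one another over many megabases, in both lines. Between clusters 2 Mb or more apart, 36 pairs of clusters could be measured, 30 of them on chromosome 7, and 20 of those under 30 Mb apart. Of these 20, 6 had an observed over expected contact above 2 in every library, a level picked after the values were seen. Of 17687 pairs of 300 kb windows tiled over chromosome 7 in the same distance range, 145 (0.82%) did so. The 6 pairs joined Zfp628-Zfp580, Zfp787-Zfp28, Zfp329-Zfp446 and Zfp180-Zfp428 with one another, in every combination at least 2 Mb apart, and Zfp954-Zfp772 with Zfp180-Zfp428. The gaps between them were 6.4 to 19 Mb. Zfp787-Zfp28 with Zfp180-Zfp428, 17.65 Mb apart, had values of 3.62, 3.24 and 4.59 in Del8, and 3.45, 3.31 and 2.67 in WT. Zfp329-Zfp446 with Zfp180-Zfp428, 11.05 Mb apart, had 2.98, 2.59 and 2.97 in Del8, and 2.76, 2.72 and 2.64 in WT. The libraries of both lines overlapped in both of these pairs, and 1 of the 6, Zfp787-Zfp28 with Zfp329-Zfp446, had every Del8 library below WT. Without balancing, 4 of the 6 were above 2 in every library; Zfp954-Zfp772 with Zfp180-Zfp428, which rests on 1 usable bin of the first cluster, then had values of 2.41, 1.002 and 2.39 in Del8, and 2.51, 2.00 and 3.08 in WT. Under the looser screen none of the 6 was above 2 in every library, with values of at most 0.015 in WT replicates 1 and 2.

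Averaged over the 6 pairs, the values were 3.69, 3.02 and 3.58 in Del8, and 3.998, 4.30 and 3.72 in WT. The other 14 pairs on chromosome 7 under 30 Mb averaged 1.01, 1.10 and 1.48 in Del8, and 1.18, 1.10 and 1.03 in WT. The 6 were picked by these same values, so the distance between the 2 averages follows in part from the choice and is no separate support. Contact of each cluster with the 500 kb flanks of the other was also raised for the 6 pairs, at 2.65, 2.44 and 2.62 in Del8, and 2.73, 2.99 and 2.81 in WT. The raw contacts behind each pair were few, 51 to 455 over the 6 libraries. Zfp607b-Zfp850 and Zfp84-Zfp146, the next clusters along the chromosome, had no such contact: with Zfp180-Zfp428, 3.1 and 5.2 Mb away, they averaged 0.853 and 0.985 in Del8, and 0.880 and 1.16 in WT. Reads shared between near-identical members would count as contacts between clusters, and their part in these values was not tested.

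Of the 36 pairs, the Del8 libraries all lay above the WT libraries in 2 and below in 1, where 5.64% and 4.97% of tiled window pairs on the autosomes did so. The 1 below was Zfp787-Zfp28 with Zfp329-Zfp446, at 3.69, 2.45 and 2.79 in Del8, and 4.19, 6.25 and 4.27 in WT. Both above involved Zfp607b-Zfp850: with Zfp787-Zfp28 it averaged 1.26 ± 0.393 in Del8 and 0.567 ± 0.149 in WT, and with Zfp329-Zfp446 it averaged 1.68 ± 0.725 in Del8 and 0.825 ± 0.083 in WT (SD, n = 3 each). Leaving out Del8 replicate 2 gave 5 above and 3 below, and leaving out WT replicate 1 gave 3 above and 4 below. Shares of tiled window pairs were not computed with libraries left out. No pair passed after adjustment (exact permutation test, smallest adjusted p = 0.90).

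**Figure D5:**
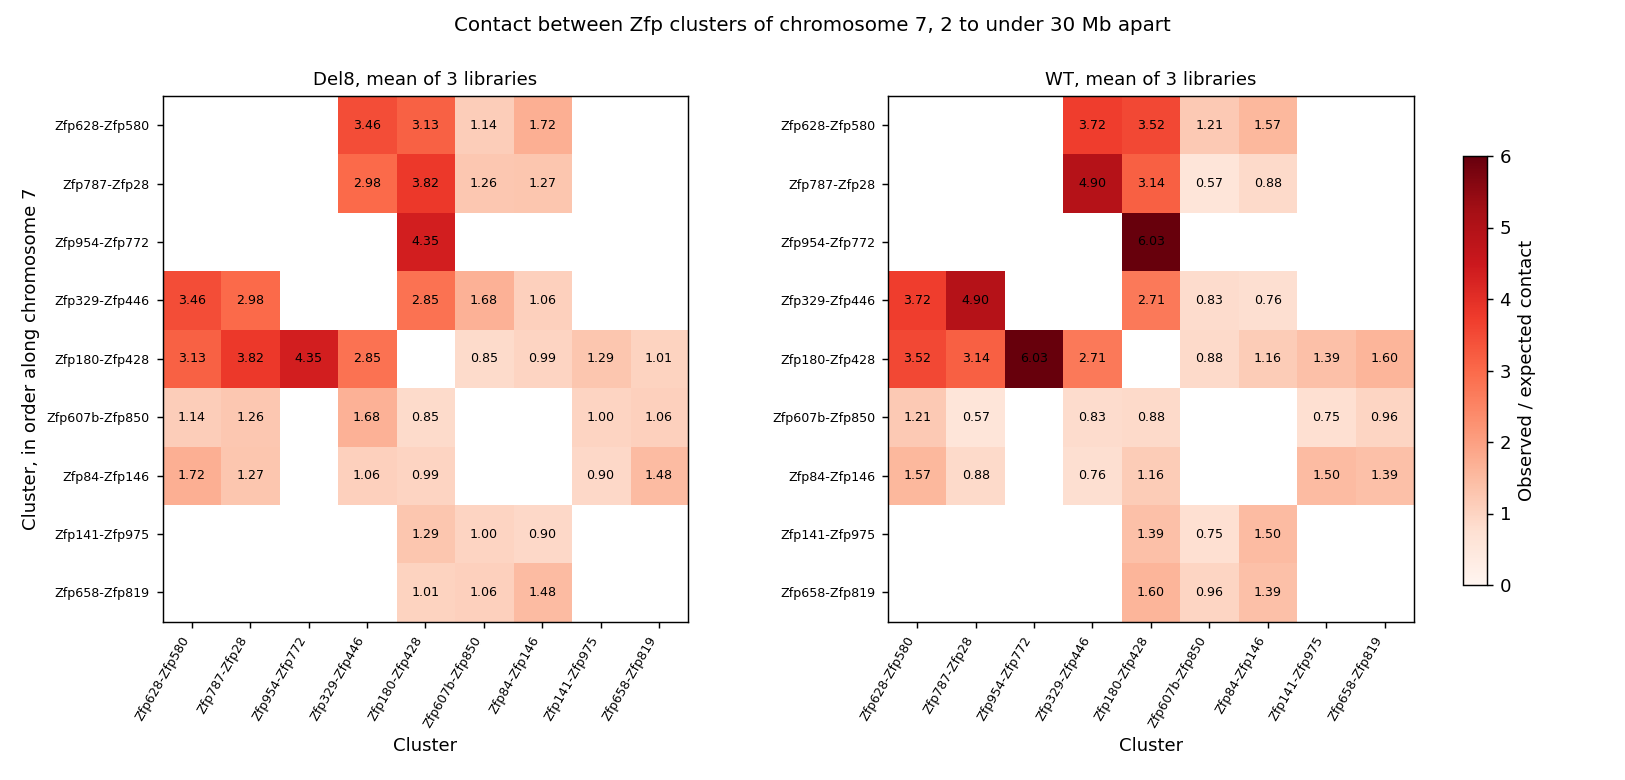
Mean observed over expected contact between Zfp clusters of chromosome 7 that lie 2 to under 30 Mb apart (rows and columns in order along the chromosome; colour from 0 to 6), mean of 3 Del8 libraries on the left and of 3 WT libraries on the right. White cells are pairs outside the distance range or without enough usable bins; both panels show values above 2 among the first 5 clusters and values from 0.57 to 1.72 elsewhere.

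The balance of far and near contacts at member bins differed between the lines by about as much as over the whole genome. The long-range ratio, the log2 of contacts at 2 Mb or more over contacts at 50 kb to under 2 Mb, had a median over 116 usable member bins of -1.39, -1.27 and -1.38 in Del8, and -1.18, -1.21 and -0.87 in WT. WT replicate 3 was the highest. All bins had medians of -1.57, -1.47 and -1.57 in Del8, and -1.46, -1.42 and -1.12 in WT. The median difference was -0.19 at members and -0.20 at all bins. Of the 116, 3 were lower and 0 higher (limma, adjusted p under 0.05; 27 had an unadjusted p under 0.05), against 7.58% lower, 0.0575% higher and 7.64% in either direction over all bins. With each library centred on its median the split was 2 lower (1.72%) and 3 higher (2.59%), against 4.07% and 3.53% of all bins.

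The 3 lower bins were those of Zfp26, Zfp94, and Zfp119a with Zfp959. Zfp26 on chromosome 9 had ratios of -0.91, -0.57 and -0.70 in Del8, and -0.23, -0.10 and -0.04 in WT, a difference of -0.60 (limma, SE 0.17, adjusted p = 0.0127). Zfp94 had -1.64, -1.61 and -1.63 in Del8, and -1.10, -1.14 and -0.86 in WT, a difference of -0.59 (limma, SE 0.15, adjusted p = 0.00686). The bin of Zfp119a and Zfp959 had -1.16, -0.996 and -1.01 in Del8, and -0.79, -0.44 and -0.40 in WT, a difference of -0.51 (limma, SE 0.16, adjusted p = 0.0288). Del8 libraries were below WT libraries in each, and each of the 3 calls was lost when any 1 Del8 library was left out. The Del8 libraries all lay below the WT libraries at 38 of the 116 bins and above at 0, against 33.8% and 0.302% of all bins. Without WT replicates 1 and 2, 88 members (75.9%) were lower, against 75.8% of all bins. Without WT replicate 1 the count was 17 (14.7%, against 17.2% of all bins), without WT replicate 3 it was 6 (5.17% against 8.97%) and without WT replicate 2 it was 1 (0.862% against 3.83%). It was 0 without any single Del8 library, with 12 to 23 members then at an unadjusted p under 0.05 and 0.165% to 1.31% of all bins called lower.

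Neither the total contacts nor the compartment of the members passed a test. Contacts per member bin were called at 0 of 145 bins (edgeR, and likewise with DESeq2, with 4 and 5 at an unadjusted p under 0.05). Of all 47633 bins, edgeR called 0.0%, and DESeq2 called 0.0735% higher and 0.798% lower. Leaving out WT replicate 3, the WT library that was not short of bins, gave 19 higher (13.1%) and 54 lower (37.2%) member bins, where 35.1% and 31.7% of all bins were called. The compartment eigenvector of 250 kb bins, which is above 0 in gene-dense chromatin, was called at 0 of 50 member bins (limma; 6 had an unadjusted p under 0.05) and at 0.0% of all 5594. It was above 0 in every library at 26 of the 50 (52.0%) and below 0 in every library at 6, where 31.4% of all bins were above 0 in every library. Its sign is set by gene density, so bins with genes lean above 0 in part by construction. Member medians were 0.76, 0.82 and 0.36 in Del8, and 0.52, 0.47 and 0.71 in WT. Zfp genes outside the clusters were alike, at 0.75, 0.75 and 0.62 in Del8, and 0.69, 0.66 and 0.65 in WT. Bins with any gene start had medians of 0.13 to 0.16 in Del8 and 0.12 to 0.15 in WT.

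By cluster, 16 of 27 with an eigenvector were above 0 in every library and 4 were below. The highest was Zfp553-Zfp629, at 1.68, 1.76 and 1.64 in Del8, and 1.73, 1.79 and 1.76 in WT. Zfp119a-Zfp119b was among the lowest, at -0.88, -0.998 and -0.98 in Del8, and -1.19, -0.95 and -0.78 in WT. The clusters of chromosome 7 in contact with one another all lay above 0 where measured, for example Zfp180-Zfp428 at 0.95, 0.96 and 0.81 in Del8, and 0.85, 0.91 and 0.76 in WT, and the part of the shared compartment in their contact was not tested. Zfp712-Zfp273 had 1.84, 1.46 and -0.17 in Del8, and -0.17, 0.44 and 1.39 in WT, on a chromosome where libraries of the same group disagreed. On 10 of the 19 autosomes every library's eigenvector correlated at 0.9 or more with that of the summed map.

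Genes of the silencing pathway that KRAB zinc finger proteins recruit were read in the same fits. The list also held Zfp genes themselves: Zfp57, Zfp42 and Zfp932, and the members Zfp445, Zfp809 and Zfp568. Of the 30 genes listed, Zfp genes included, 25 had a score, 15 were higher and 5 lower in Del8, with a median difference of 0.09. Of all gene-start bins 42.8% were higher and 20.04% lower (median 0.05), and of all scored bins 32.3% and 30.5%, so nothing here is called particular to the pathway. Setdb1, the methyltransferase, rose by 0.22 and its cofactor Atf7ip by 0.20. Among the heterochromatin proteins, Cbx5 rose by 0.36 and Cbx1 by 0.08, and Cbx3 fell by 0.25. Of the HUSH silencing complex, Pphln1 rose by 0.24, and Tasor fell by 0.31 and Mphosph8 by 0.10. The DNA methylation genes Uhrf1, Dnmt3b, Dnmt1, Dnmt3l and Dnmt3a rose by 0.23, 0.18, 0.18, 0.09 and 0.07. Daxx, Morc3, Ehmt2, Zfp57 and Chd4 rose by 0.31, 0.22, 0.13, 0.09 and 0.08, and Chd3 fell by 0.07; the remaining lower one was the member Zfp809. Trim28 had no score. Their long-range ratio was lower at 1 of 29, Atf7ip, and their coverage was called at 0.

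The promoters of the members, 185 for 170 members found in the RefSeq table of 300-base windows, less often held the coarse CTCF core than those of other genes, as a description. A match on either strand was present in 10 of 185 (5.41%), against 10.1% of 20084 promoters of all autosomal protein-coding genes, 15.6% of 211 promoters of Zfp genes outside the clusters and 0.743% of 942 olfactory receptor promoters. Besides Zfp398, Zfp786 and Zfp961, the promoters of Zfp563, Zfp607b, Zfp760, Zfp764, Zfp777, Zfp781 and Zfp956 held a match. The median number of CG dinucleotides was 11 in member promoters, against 14 in all, 17 in the other Zfp genes and 1 in olfactory receptor genes. A match is no measured binding site, and the bins of this study are far wider than a promoter.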

How the data were processed

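Hi-C contacts were measured in 3 Del8 and 3 WT libraries. Per library, the deposited table holds raw counts of contacts between 50 kb bins of the same chromosome. The submitters' processing notes name mm10 as the build. Which aligner and read filters were used, and how reads with several matches were treated, is not given in the sources used here. Member genes and comparison lists were chosen with earlier results of these data known. Bins were screened, also after the data had been examined: in every library the scaled coverage had to be at least 0.5 of the third highest value among all 6 and above 0.1 of that library's scale. A looser screen asked for 20 contacts per library.

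Iterative correction without the diagonal balanced each chromosome's map. The insulation score needed at least 50% of its square usable, and boundaries were minima with a prominence of 0.2 or more. The long-range ratio added 0.5 contacts to both counts. Scores, ratios and eigenvectors were tested with limma 3.58.1 with a trend, and contact counts with the quasi-likelihood test of edgeR 4.0.16, or DESeq2 1.42.0 as an alternative, in R 4.3.3. The p-values were adjusted by Benjamini-Hochberg over all bins or pairs. Pairs of 100 kb bins lay 100 kb to 2 Mb apart with a mean count of 10 or more, and TMM was an alternative to offsets by distance. Contact within clusters needed 3 usable bin pairs, and between clusters 10. The fits of insulation score, coverage and bin pairs were tested on simulated data first, and the other fits and the permutation tests were not.

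The genes named are the 5 member bins with the largest rise and the 5 with the largest fall per fit among those past an adjusted p of 0.05, every cluster by its median, every silencing gene that passed, and the 3 pairs that rose and the 3 that fell most. Other members were named after their values were seen. The labels do not say that a replicate number is shared by the lines, so the fits had no block. A planned count of zinc fingers per protein was left out because no protein table was used. Contacts between chromosomes were not analysed here. Promoter sequences and gene positions are from RefSeq (GRCm38.p6). Precision is limited by the depth of the WT libraries, and p-values measure the spread between these 6 libraries.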

Additional observations from a re-analysis of the deposited data

How the results depend on the processing

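Of the 10 named member bins, the 5 largest rises and 5 largest falls of insulation score past the threshold, 8 kept their direction in all alternatives. Zfp985 was 0.022 with only WT replicate 3 and Del8 screened and fitted, an alternative added after the data were seen, and 0.015 without WT replicates 1 and 2. Zfp24 was 10.4 under the looser screen, where WT replicates 1 and 2 have bins with few contacts. Zfp94 and the bin of Zfp108, Zfp93 and Zfp61 were both at 2.53 there, Zfp786 with Zfp398 at 2.39 and Zfp78 with Zfp28 at 1.32. Their main differences were 0.46, 0.31, 0.42 and 0.33. Zfp647 went the other way, from 0.39 to 0.19. A kept direction is thus no sign of a stable size. That screen ended every call of insulation (0 higher, 0 lower), long-range ratio (0 lower) and bin pairs (0 and 0), over all bins and pairs as well as at members. There 24, 17 and 32 members or pairs had an unadjusted p under 0.05, and the cause was not tested. Under it, 3 clusters had every Del8 library below WT within, 8 cluster pairs had every Del8 library above, and 0 chromosome 7 pairs stayed above 2 in every library. For the 6 high pairs it gave 0.955 to 4.88 in Del8 and WT replicate 3, and at most 0.015 in WT replicates 1 and 2.

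Lower members by long-range ratio numbered 12 with a 5 Mb limit, 6 with a pseudocount of 5, 0 to 17 with single libraries left out and 88 without WT replicates 1 and 2 (75.9%, against 75.8% of all bins); with centring 3 were higher (2.59%, against 3.53%). Coverage gave 0 to 19 higher and 0 to 54 lower members with single libraries left out, the highest counts without WT replicate 3, where 35.1% and 31.7% of all bins were called. Pairs inside clusters gave 4 higher and 4 lower with DESeq2 (3.81% each, against 1.66% and 1.63% of all pairs). With TMM they gave 5 and 16 (4.62% and 5.41% of all pairs). Leaving out single libraries gave 5 to 7 higher and 5 to 8 lower, where 2.81% to 3.60% and 2.43% to 3.23% of all pairs were called. Without WT replicates 1 and 2 the median difference was 0.031 inside clusters and 0.019 over all pairs. Clusters with every Del8 library above numbered 4 without balancing, 2 to 4 with single libraries left out and 5 without WT replicates 1 and 2. For cluster pairs, 2 were below without balancing, and leaving out single libraries gave 2 to 5 above and 2 to 4 below. Without WT replicates 1 and 2 there were 11 above and 7 below, and for flanks, also added later, 4 above and 3 below. Fewer libraries make non-overlap easier, by construction. For all these counts of clusters and cluster pairs, and those under the looser screen, shares of tiled windows were computed only in the main setting. No share under the same setting stands beside them.

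With the replicate number as a block, 19 member bins were higher and 19 lower by insulation score (25.7% each, against 31.8% and 29.9% of all bins). By long-range ratio 1 was lower (0.862%, against 1.55% of all bins). Of the pairs, 9 were higher and 6 lower (8.57% and 5.71%, against 4.37% and 3.80% of all pairs). Coverage and eigenvector gave 0 calls at members (edgeR and limma, with 2 and 5 at an unadjusted p under 0.05). Of all bins, 0.111% were higher and 0.0336% lower by coverage, and 0 were called by eigenvector. Same-numbered libraries did not deviate together in insulation score (correlations -0.044, -0.017 and -0.092). For the eigenvector the correlations were -0.201, -0.047 and -0.234, and for coverage -0.429, -0.406 and -0.554. Deviations from means of 3 libraries cannot show if libraries were prepared together, so a pairing by number was not settled. The between-cluster values rest on few contacts.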
